A study of Mus musculus with 8 samples.

Results

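Gene bodies longer than 200 kb form the class of regions described here, each with a CHH methylation difference between a DNA glycosylase knockout and wild type (WT) hippocampus. A region belonged to the class if it was listed as a gene body in 1 of the 3 CHH lists deposited for the study, lay on chromosomes 1 to 19 and spanned more than 200000 bp. There were 844 such regions among the 4450 CHH regions and the 9329 regions of every sequence context: 294 from the comparison of Mutyh-/- with WT, 383 from Ogg1-/- and 167 from DKO. They covered 555 distinct locations in 472 genes, since a gene can be listed once for each of its transcripts. RefSeq gave an entry for 553 of the 555 locations, of which 542 belonged to protein-coding genes and 11 to long non-coding RNA genes.

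Whole-genome bisulfite sequencing was done on hippocampal DNA of male C57BL/6N mice aged 6 months. The groups were Mutyh-/-, Ogg1-/-, DKO (Ogg1-/- x Mutyh-/-, obtained by crossing both knockout lines) and WT, with 2 libraries each and 8 in all. No tissue-restricted deletion is named for these lines, and the DNA came from whole hippocampus, so each level is an average over neurons, glia and vessel cells. Nothing in the sources ties the paired libraries of a group to different mice, and their spread may be technical.

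Ogg1 removes 8-oxoguanine, a common oxidised base, from DNA, and Mutyh removes adenine that was wrongly placed opposite 8-oxoguanine. Cytosine methylation in mammals sits mostly at CG, but adult neurons also carry it outside CG, at CHG and CHH, where H stands for A, C or T. This non-CG methylation accumulates after birth through the methyltransferase Dnmt3a and is spread over gene bodies and intergenic DNA.

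The amount of CHH sequence in these regions was large and almost wholly intronic. The median location held 98062 CHH cytosines, counted on both strands of GRCm38, with a range of 56608 to 664797. A set of 5 stretches of 120 bases are printed because their genes carry the patterns described below: Robo2 and Cux1 were lower in every knockout, Cdh13 was higher in both single knockouts, and Nckap5 and Tmem108 differed in direction between knockouts. Each is the middle of the gene's longest listed region (for Cux1 an entry of 317356 bp listed in Ogg1-/-, where the values given below are of a shorter entry), on the gene's own strand, 5′ to 3′, from RefSeq GRCm38.p6; each lies in an intron, and capitals mark the CHH cytosines of that strand.
Robo2 (chr16:74151549-74151668, minus strand, 16 CHH): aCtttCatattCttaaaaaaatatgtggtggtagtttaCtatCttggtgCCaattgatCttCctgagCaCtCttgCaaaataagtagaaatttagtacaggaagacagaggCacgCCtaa
Cux1 (chr5:136407753-136407872, minus strand, 14 CHH): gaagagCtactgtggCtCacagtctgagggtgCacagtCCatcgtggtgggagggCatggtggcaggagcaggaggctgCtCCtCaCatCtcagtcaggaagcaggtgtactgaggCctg
Cdh13 (chr8:118803542-118803661, plus strand, 16 CHH): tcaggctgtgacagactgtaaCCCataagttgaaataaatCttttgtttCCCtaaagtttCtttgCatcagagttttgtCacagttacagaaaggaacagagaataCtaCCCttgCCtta
Nckap5 (chr1:126372074-126372193, minus strand, 13 CHH): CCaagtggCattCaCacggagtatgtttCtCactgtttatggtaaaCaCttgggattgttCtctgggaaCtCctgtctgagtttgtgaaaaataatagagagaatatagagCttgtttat
Tmem108 (chr9:103622327-103622446, minus strand, 18 CHH): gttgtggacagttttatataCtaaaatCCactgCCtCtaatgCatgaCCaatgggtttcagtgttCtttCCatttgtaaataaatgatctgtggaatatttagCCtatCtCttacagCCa
The stretches show how many CHH positions a short piece of such an intron holds against 1 CG at most.

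The level of a region in a library is the authors' deposited median over the cytosines that their region caller kept, turned into percent and averaged over the 2 library pairs that it entered. The deposited medians run from 1 to 2, and reading them as 1 plus the methylated fraction is an inference from their range and threshold, on which every percent below depends. It is not a mean over all CHH cytosines of the region, and the levels of 10 to 89% met here describe methylated positions, not the whole sequence. The number of reads and of cytosines behind a region was not used here because the lists hold neither, so the precision of a level can be read only from the 2 libraries of a genotype and the 2 values of each library. Those 2 values, from the same library and region set against different partners, lay a median of 4 to 8 points apart and at most 23 to 51, depending on the library. A region was listed if all 4 pairs of a knockout and a WT library differed in the same direction by a relative ratio of about 0.1, so every region below had passed that selection. With 2 libraries against 2, the smallest p of a two-sided exact permutation test is 0.333, and no region was tested again. Gain, loss and change below therefore mean the difference knockout minus WT of a listed region, higher or lower in all 4 pairs, and not the outcome of a new test.

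Long gene bodies had less CHH methylation in every knockout than in WT at nearly all listed locations. In Mutyh-/- hippocampus 288 of 294 regions (98%) were lower and 6 (2.04%) were higher than in WT, beside 99.5% lower and 0.45% higher over all 1555 CHH regions of that comparison. In Ogg1-/- 380 of 383 regions (99.2%) were lower and 3 (0.783%) were higher, beside 99.8% and 0.198% over 2021 CHH regions. In DKO 148 of 167 regions (88.6%) were lower and 19 (11.4%) were higher, beside 97.7% and 2.29% over 874 CHH regions. Nearly all gains of the CHH lists thus lay in long gene bodies: the gene bodies up to 200 kb had 1 gain among the 1075 listed for Mutyh-/-, 1 among the 1417 for Ogg1-/- and 1 among the 594 for DKO. These shares come from the same comparisons that selected the regions and are given as a description.

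Where methylation was lower, the size of the difference was alike in the 3 comparisons. The median region with a loss stood at 23.5% in Mutyh-/- and 42% in WT, at 22.5% in Ogg1-/- and 40.75% in WT, and at 25.5% in DKO and 43.5% in WT. The median change, knockout minus WT, was -18.25 percentage points in Mutyh-/- (range -32.25 to -13.5), -17.75 in Ogg1-/- (-30.75 to -13.5) and -19 in DKO (-32 to -14). Gene bodies up to 200 kb had median losses of -18.5, -17.875 and -18.75 points, so the long ones did not stand out in size. The smallest losses sit where the authors' relative ratio of 0.1 ends the list.

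**Figure D1:**
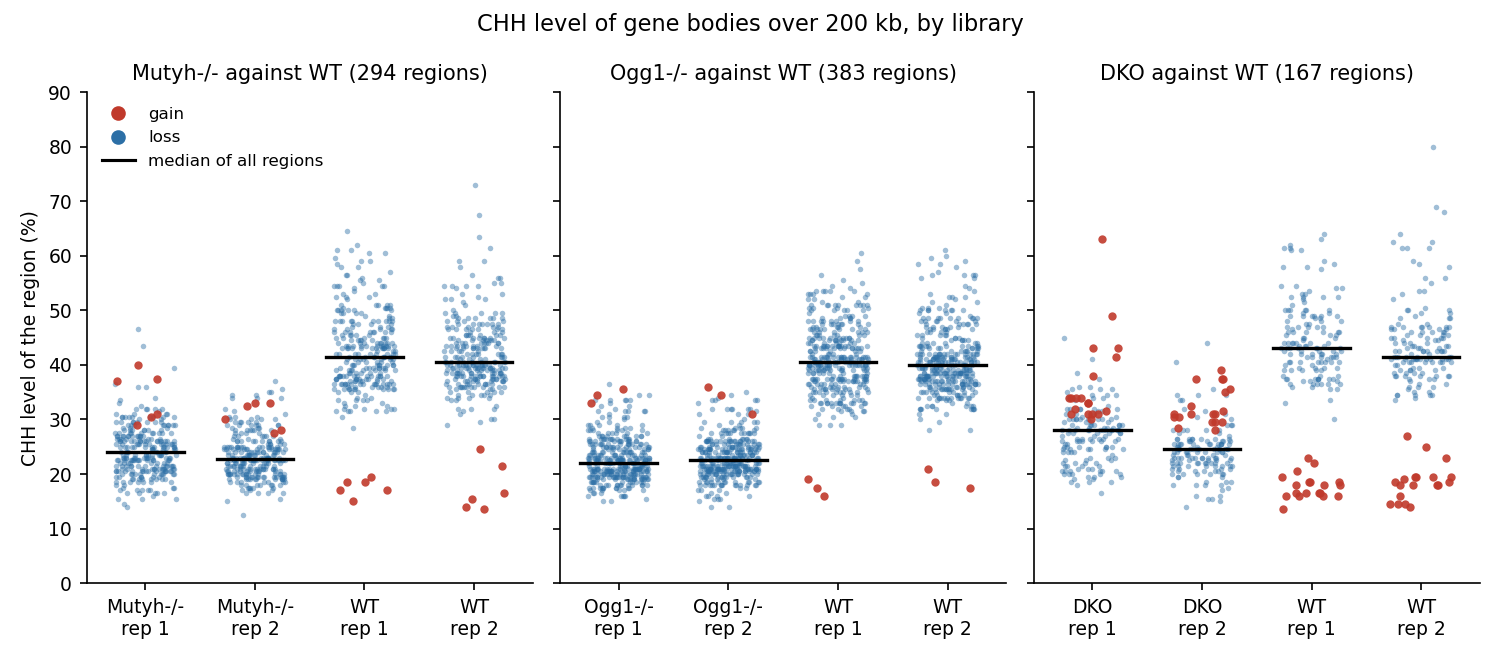
CHH level in percent of each gene body over 200 kb in the knockout and WT libraries of the 3 comparisons, 1 point per region, red for gains, blue for losses, with a black line at the median of all regions. The knockout medians lie between 22 and 28% and the WT medians between 40 and 43%, while the red points are low in WT.

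The WT level separated gains from losses, but the same WT and knockout values had set the direction, so this is a description. Regions with a gain averaged 15.25 to 25% in WT, and regions with a loss averaged 31.25 to 66% in WT, with no overlap between the ranges. In the knockouts the same regions overlapped, at 29.25 to 49.25% for gains and 15.75 to 40.5% for losses. The median region with a gain stood at 32.75% in Mutyh-/- against 17.125% in WT. It stood at 33.75% in Ogg1-/- against 18.5% in WT, and at 34.25% in DKO against 17.75% in WT. The 1 gain of Mutyh-/- among gene bodies up to 200 kb averaged 75.25% in WT, so the separation did not hold there.

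The libraries of a genotype were close at the median region and differed more at single regions. Over the 294 regions of the Mutyh-/- comparison the median level was 24 and 22.75% in the Mutyh-/- libraries and 41.5 and 40.5% in the WT libraries. Over the 383 regions of the Ogg1-/- comparison it was 22 and 22.5% in Ogg1-/- and 40.5 and 40% in WT. In the DKO comparison the first DKO library stood at 28% and the second at 24.5%, against 43 and 41.5% in WT, and the first DKO library was the higher one in 116 of 167 regions. The SD between the 2 libraries of a genotype, at the median region with a loss, was 2.47 points for Mutyh-/- and 3.54 for WT, 2.12 for Ogg1-/- and 3.54 for WT, and 3.18 for DKO and 3.18 for WT.

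The knockout and WT libraries did not overlap in 293 of 294 regions for Mutyh-/- (99.5% over all CHH regions of that comparison), 381 of 383 for Ogg1-/- (99.3% over all) and 166 of 167 for DKO (99.7% over all). The exception in Mutyh-/- was Zdhhc14, a palmitoyltransferase, with 29 and 19.5%, against 53.5 and 29% in WT. In Ogg1-/- it was the oestrogen receptor gene Esr1, whose 2 entries had 33.5 and 18.5%, against 29 and 56.5% in WT. In DKO it was D430041D05Rik, with 19 and 44%, against 57.5 and 41.5% in WT. Wide gaps between WT libraries were also seen at Shisa9, an auxiliary subunit of AMPA receptors, which had 24 and 25% in DKO and 33 and 80% in WT. Its change of -32 points became -16 without the second WT library. Here and below, leaving out a library removed its 2 pairs, so the other libraries kept only their values from the remaining pairs. Such a change therefore cannot be worked out from the printed levels. Arhgap42, a GTPase-activating protein, had 29.5 and 21.5% in DKO and 64 and 35.5% in WT, and the adhesion molecule gene Chl1 had 24 and 29% in Mutyh-/- and 32 and 56% in WT.

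Length within the class went with the share of gains and not with the size of the losses. Of the regions over 500 kb, 12 of 38 in DKO were gains, against 6 of 55 in Mutyh-/- and 2 of 75 in Ogg1-/-. Between 300 and 500 kb there were 4 gains of 41 regions in DKO, 0 of 89 in Mutyh-/- and 0 of 122 in Ogg1-/-, and up to 300 kb there were 3 of 88, 0 of 150 and 1 of 186. The median length of a gain was 577292 bp in DKO, 942627.5 bp in Mutyh-/- and 597481 bp in Ogg1-/-, against 279714, 296487.5 and 305781.5 bp for losses. The median loss stayed between -17.75 and -19.25 points in all 3 length classes of every comparison.

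**Figure D2:**
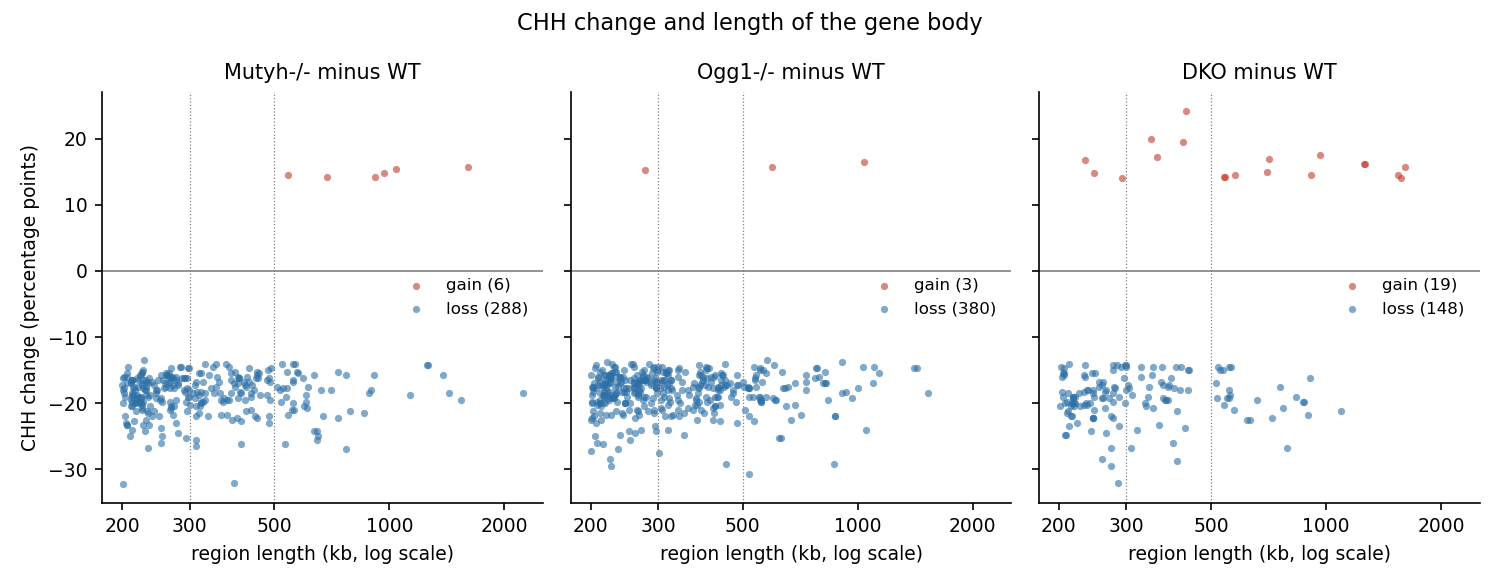
CHH change in percentage points, knockout minus WT, of each gene body against its length in kb on a log scale, with dotted lines at 300 and 500 kb. Losses form a band of constant depth, and 12 of the 19 gains in DKO and all 6 in Mutyh-/- lie above 500 kb.

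The longest regions belong to genes of cell adhesion and neuronal splicing. Cntnap2, a neurexin-like protein that organises the axon near nodes of Ranvier, spanned 2239311 bp and had 22 and 24.5% in Mutyh-/- against 42 and 41.5% in WT. Nrxn3, a presynaptic neurexin, spanned 1538430 bp in the same comparison and had 22.5 and 23% in Mutyh-/- against 46 and 38.5% in WT. Among the longest in Ogg1-/- were Rbfox1, a neuronal splicing factor (21 and 28.5%, against 51 and 35.5% in WT), and Gpc5, a heparan sulfate proteoglycan (25 and 22%, against 35 and 41.5% in WT). These libraries did not overlap between genotypes. The longest regions of the DKO comparison were gains, in Fhit and Ctnna3.

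At the length threshold the values did not break. Just above it, Neb at 200152 bp changed by -17.25 points in Mutyh-/- and -15.75 in Ogg1-/-, St3gal3 at 200794 bp by -18, -27.25 and -20.5 in Mutyh-/-, Ogg1-/- and DKO, and Gm20757 at 202073 bp by -14.5 in DKO. Just below it, Antxr1 at 199923 bp changed by -24 points in Mutyh-/- and -17.25 in Ogg1-/-, Fer at 199525 bp by -18.5 in Mutyh-/- and -16.25 in DKO, Fbn2 at 199304 bp by -21.5 in Ogg1-/-, and Pbx3 at 198589 bp by -15.75 in DKO.

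Gains were found in 21 genes, and 3 of them gained in more than 1 comparison. Cdh13 (chr8:118284755-119322448, 1037694 bp) encodes T-cadherin, a cadherin anchored to the membrane by a lipid. It had 30.5 and 33% in Mutyh-/- against 18.5 and 14% in WT, and 34.5 and 36% in Ogg1-/- against 19 and 18.5% in WT. Both knockouts lay above both WT libraries, by 15.5 and 16.5 points.

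Fhit, a hydrolase of dinucleoside polyphosphates whose human gene spans a common fragile site, gained over 1609939 bp in Mutyh-/- and DKO. It had 40 and 27.5% in Mutyh-/- against 19.5 and 16.5% in WT, and 34 and 39% in DKO against 22 and 19.5% in WT. The change was 15.75 points in both. At its transcription end site, the 2 kb window around the end of the gene, CHH methylation was instead lower in Mutyh-/- (37 and 23%, against 58 and 53.5% in WT).

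Nckap5 gained over 914997 bp in Mutyh-/- and DKO. It had 31 and 28% in Mutyh-/- against 17 and 13.5% in WT, and 34 and 31% in DKO against 16.5 and 19.5% in WT. A shorter entry of the gene, of 577292 bp, was lower in Ogg1-/- (18 and 21%, against 30.5 and 35.5% in WT) and higher in DKO.

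The other gains of the single knockouts were few. In Mutyh-/- they were the synaptic adhesion gene Sdk1 (37 and 32.5%, against 18.5 and 21.5% in WT), Thsd4, a protein of the extracellular matrix (37.5 and 33%, against 17 and 24.5% in WT), and Plcb1, a phospholipase C that acts behind muscarinic and other Gq-coupled receptors (29 and 30%, against 15 and 15.5% in WT). In Ogg1-/- they were Sorcs3, a sorting receptor of the Vps10 family (35.5 and 31%, against 17.5 and 17.5% in WT), and Tmem108. In each of these the knockout libraries lay above the WT libraries.

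DKO had gains in 15 genes. The largest was in Hmcn1, the extracellular matrix protein hemicentin, with 63 and 35.5% in DKO against 23 and 27% in WT, a change of 24.25 points that rests on unequal DKO libraries (SD 19.4, n = 2). Ano2, a calcium-activated chloride channel that shortens bursts of firing in neurons, had 43 and 32.5% in DKO against 16.5 and 19% in WT. Fhod3, a formin that nucleates actin, had 43 and 28% in DKO against 13.5 and 18.5% in WT. In all 3 the first DKO library was the higher one.

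Further gains in DKO were found in cell surface and adhesion genes. Ntm, the surface protein neurotrimin, had 38 and 31.5% in DKO against 18.5 and 16% in WT. Kirrel3, an immunoglobulin-type adhesion molecule of hippocampal mossy fibre synapses, had 33 and 29.5% in DKO against 16 and 18% in WT. Ctnna3, an alpha-catenin that ties cadherins to actin, had 30 and 28.5% in DKO against 16 and 14.5% in WT over 1571570 bp. Lama3, a laminin chain, had 31.5 and 31% in DKO against 18.5 and 14.5% in WT. DKO libraries lay above WT libraries at each of them. Arl15, a small GTPase, and Agbl4, an enzyme that trims glutamate chains from tubulin, gained by 17.25 and 16.25 points, and Rcan2, an inhibitor of calcineurin, Zbtb20, a transcription factor of hippocampal projection neurons, and Trio, an exchange factor for small GTPases, gained by 16.75, 17 and 14 points.

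The direction was not the same in all knockouts at 11 locations in 10 genes, which were a gain in 1 comparison and a loss in another over the identical interval. Tmem108, a membrane protein of neuronal endosomes, had 33 and 34.5% in Ogg1-/- against 16 and 21% in WT. The same interval (chr9:103483936-103760837) had 20.5 and 22% in Mutyh-/- against 35 and 46.5% in WT, and 30.5 and 20% in DKO against 40 and 40.5% in WT. Zbtb20 (chr16:42908645-43618123) had 41.5 and 35% in DKO against 19.5 and 23% in WT, and 22 and 20.5% in Ogg1-/- against 46.5 and 39.5% in WT. In both genes the WT values moved between comparisons at least as much as the knockout values, although the WT libraries were the same.

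In 12 of 12 pairs of comparisons, both WT libraries were lower where the region was listed as a gain, by 5.5 to 41 points. WT averaged 15.25 to 25% at all gains and 31.25 to 66% at all losses. The order of the WT levels was thus close to set by the listing and is a description. The knockout libraries were both higher in 11 of 12 pairs, the exception being Trio, with 31 and 29.5% in DKO against 18.5 and 14% in WT, and 39.5 and 21.5% in Mutyh-/- against 56.5 and 55% in WT. Over the 247 locations listed in more than 1 comparison, the level of the first WT library differed between comparisons by a median of 6 points and at most 38, and that of the second by 5.5 and at most 41. The same library thus had more than 1 level at a location, and the part of this in the opposite directions was not tested.

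**Figure D3:**
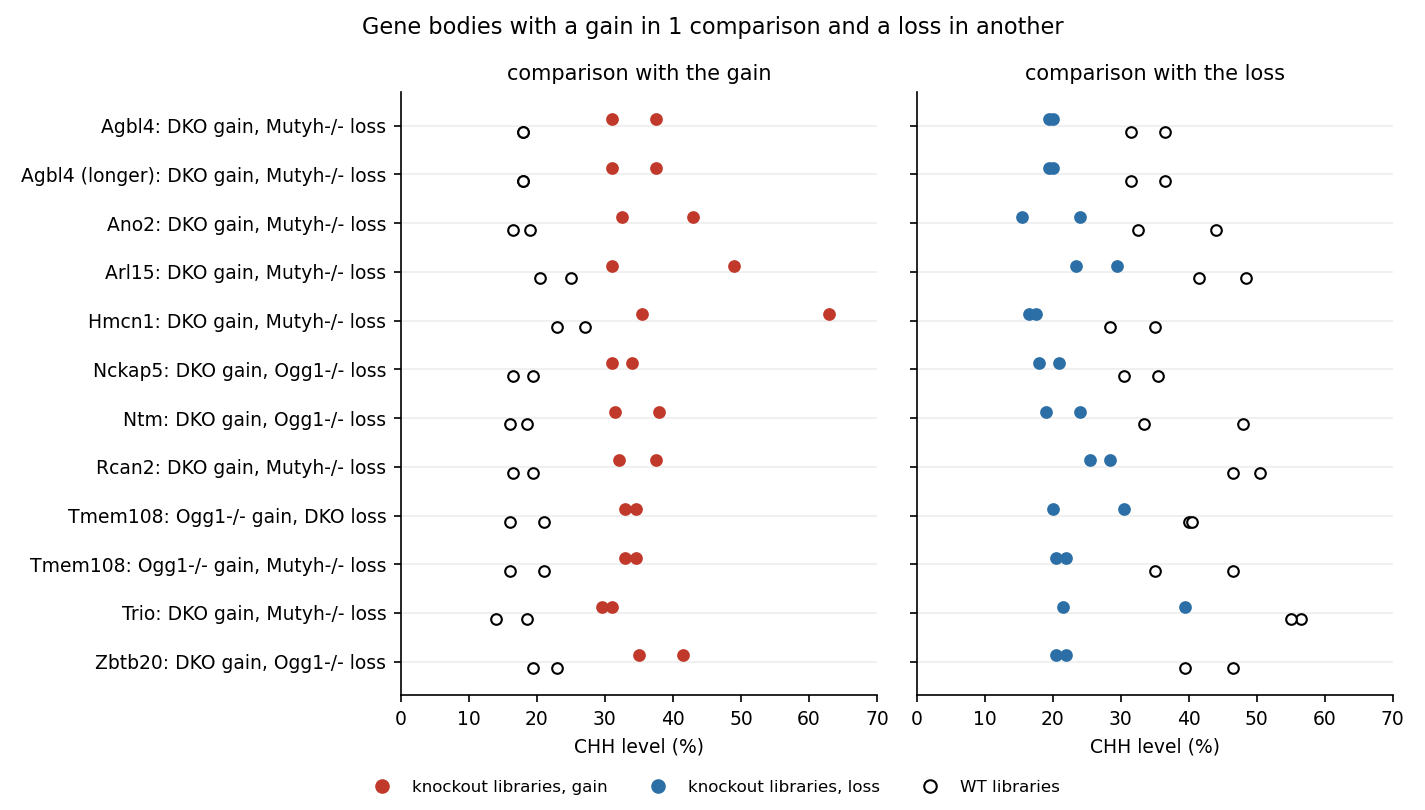
CHH level in percent at the 11 locations with a gain in 1 comparison (left) and a loss in another (right), 12 rows of paired comparisons, with filled points for the knockout libraries and open points for the same 2 WT libraries. The WT points lie between 14 and 27% on the left and between 28.5 and 56.5% on the right.

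The lists of the 3 knockouts shared genes. Of the 472 genes, 44 had a long region in all 3 comparisons, 172 in 2 and 256 in 1. Mutyh-/- and Ogg1-/- shared 152 genes (58.5% of those of Mutyh-/- and 45.6% of those of Ogg1-/-), Mutyh-/- and DKO 68 (26.2% and 48.9%), and Ogg1-/- and DKO 84 (25.2% and 60.4%). The comparisons use the same WT libraries, so shared genes are not independent findings. Of the 44, 41 were losses in each knockout, with a median change of -18.25 points for Mutyh-/-, -17.5 for Ogg1-/- and -18.375 for DKO, and the other 3 were Nckap5, Tmem108 and Zbtb20.

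**Figure D4:**
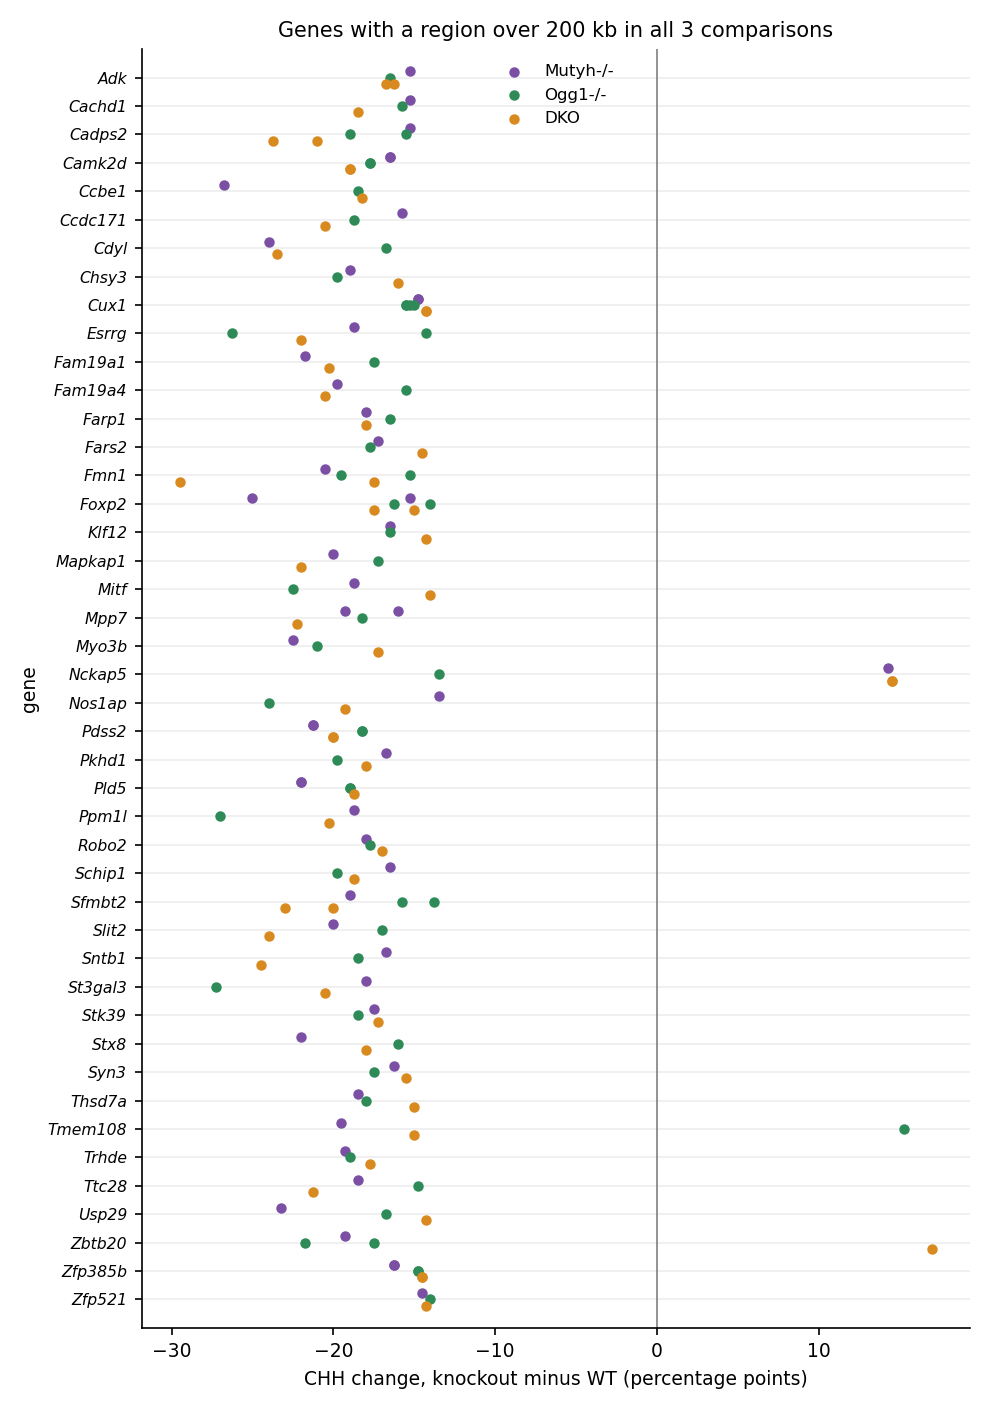
CHH change in percentage points, knockout minus WT, of each region of the 44 genes with a gene body over 200 kb in all 3 comparisons (purple Mutyh-/-, green Ogg1-/-, orange DKO). The 41 genes with losses only lie between -29.5 and -13.5 points, and Nckap5, Tmem108 and Zbtb20 have points on both sides of 0.

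Transcription factors and chromatin proteins were among the 44. Foxp2, a forkhead factor of vocal and motor circuits, had 21.5 and 17.5% in Mutyh-/- against 35.5 and 34% in WT, 18 and 18% in Ogg1-/- against 31.5 and 37% in WT, and 25 and 28% in DKO against 39 and 44% in WT over 538629 bp. A shorter Foxp2 entry in Mutyh-/- changed by -25 points, with WT libraries at 60.5 and 29.5%, and by -13.5 without the first WT library. Cux1, a homeobox factor of upper-layer cortical neurons, had 27.5 and 24% in Mutyh-/- against 43 and 38% in WT, 25 and 26% in Ogg1-/- against 40.5 and 41% in WT, and 30 and 25.5% in DKO against 41.5 and 42.5% in WT. The knockout libraries of both genes were lower throughout, which their listing as losses had required in every pair. Esrrg, an orphan nuclear receptor, Klf12, a Krüppel-like repressor, Mitf, the leading transcription factor of pigment cells, and the zinc finger genes Zfp521 and Zfp385b were also lower in each knockout, as were Cdyl, a chromodomain corepressor, and Sfmbt2, a Polycomb-group protein, with changes of -24 to -13.75 points over the regions of these genes named by the selection rule.

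A ligand and its receptor were also among the 44. Slit2 encodes a secreted repellent of growing axons and Robo2 its receptor. Slit2 had 28 and 22.5% in Mutyh-/- against 42 and 48.5% in WT, 22 and 22% in Ogg1-/- against 41.5 and 36.5% in WT, and 29.5 and 23.5% in DKO against 52.5 and 48.5% in WT. Robo2 had 23 and 21% in Mutyh-/- against 46 and 34% in WT, 17.5 and 15.5% in Ogg1-/- against 39 and 29.5% in WT, and 25.5 and 24% in DKO against 46 and 37.5% in WT. Both were lower in all 6 knockout libraries, but their listing as a loss in each comparison had required every pair to be lower, so this is no separate result. Syn3, a synapsin on synaptic vesicles, changed by -16.25, -17.5 and -15.5 points in Mutyh-/-, Ogg1-/- and DKO. Cadps2, which primes dense-core vesicles for release, changed by -15.25, -15.5 and -21 points in the same order. Stx8, an endosomal fusion protein, changed by -22, -16 and -18 points, and Nos1ap, an adaptor of neuronal nitric oxide synthase, by -13.5, -24 and -19.25.

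Enzymes and signalling proteins made up much of the remainder. Camk2d, a subunit of calcium/calmodulin-dependent kinase II, had 22.5 and 21.5% in Mutyh-/- against 38 and 39% in WT, 16 and 20% in Ogg1-/- against 35 and 36.5% in WT, and 32 and 25.5% in DKO against 54 and 41.5% in WT. Adk, the kinase that clears adenosine, changed by -15.25, -16.5 and -16.25 points in Mutyh-/-, Ogg1-/- and DKO. Stk39, a kinase that controls chloride cotransporters, changed by -17.5, -18.5 and -17.25 points in the same order. Mapkap1, a subunit of the mTORC2 complex, changed by -20, -17.25 and -22 points, Ppm1l, a protein phosphatase, by -18.75, -27 and -20.25, and Trhde, which degrades thyrotropin-releasing hormone, by -19.25, -19 and -17.75. Pdss2, of coenzyme Q synthesis, changed by -21.25, -18.25 and -20 points, and its value in Mutyh-/- was -14 without the pairs of the first Mutyh-/- library. Fars2, a mitochondrial tRNA synthetase, changed by -17.25, -17.75 and -14.5 points. St3gal3 and Chsy3, enzymes that add sialic acid and build chondroitin chains, and Usp29, an imprinted gene expressed from the paternal copy, were lower in each knockout as well, with changes between -27.25 and -14.25 points.

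Structural and secreted proteins completed the 44. Fmn1, a formin, changed by -20.5 points in Mutyh-/- and -19.5 in Ogg1-/-. It changed by -29.5 points in DKO, where it had 29.5 and 40.5% against 61 and 68% in WT. Myo3b, an actin motor with a kinase domain, Farp1, an exchange factor of dendrites and synapses, Mpp7, a polarity scaffold, and Sntb1, a syntrophin of the dystrophin complex, changed by between -24.5 and -16 points. Fam19a1 and Fam19a4, secreted proteins of the brain, changed by between -21.75 and -15.5 points. Thsd7a, Pkhd1, the ciliary protein fibrocystin, and Ccbe1, needed for lymphatic vessels, were also lower in each knockout, as were Cachd1, Ccdc171, Pld5, Schip1 and Ttc28.

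Genes were also counted by function, and lists without a gain are no trait of a function, since 98% of the regions were losses in Mutyh-/-, 99.2% in Ogg1-/- and 88.6% in DKO. Of the 20 axon guidance genes with a body over 200 kb, Mutyh-/- listed 8, Ogg1-/- 10 and DKO 3, all losses. Over all 1005 autosomal RefSeq genes with such a body the listed share was 25.8% for Mutyh-/-, 32.9% for Ogg1-/- and 13.8% for DKO. The median change of the list was -19, -18 and -21.25 points. Sema3e and Sema3a, secreted semaphorins that steer axons, were listed in the single knockouts. Sema3e had 17 and 22.5% in Mutyh-/- against 48.5 and 39.5% in WT, and 20.5 and 19.5% in Ogg1-/- against 35.5 and 42.5% in WT. Sema3a changed by -23 points in Mutyh-/- (-14.5 without the first WT library) and by -22 in Ogg1-/-, and the window of 1 kb on either side of its start was lower in Mutyh-/- too (24.5 and 28.5%, against 47 and 42.5% in WT).

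Of 23 long genes of the extracellular matrix, Mutyh-/- listed 10 (9 losses, and the gain of Thsd4), while Ogg1-/- listed 9 and DKO 4, all losses. Col25a1, a transmembrane collagen of neurons, had 26 and 18% in Mutyh-/- against 38 and 39.5% in WT, and 23 and 20.5% in Ogg1-/- against 34.5 and 50.5% in WT, where its change of -20.75 points was -13.5 without the second WT library. Col14a1, a fibril-associated collagen, changed by -20.5 points in Mutyh-/- (-13.5 without the first WT library) and -18.5 in DKO. Of 33 long genes of transcription factors and chromatin regulators, Mutyh-/- listed 11, Ogg1-/- 15 and DKO 5, losses but for Zbtb20 in DKO. Sox5, a factor of deep-layer cortical neurons, had 31.5 and 21% in Ogg1-/- against 45 and 48% in WT, and 21 and 27% in DKO against 52 and 35% in WT.

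Of 41 long genes of synaptic and immunoglobulin-type adhesion, Mutyh-/- listed 7 (6 losses, and the gain of Sdk1), Ogg1-/- 10 (all losses) and DKO 2 (both gains, Kirrel3 and Ntm). Lphn3, an adhesion receptor that binds teneurins, had 30 and 21.5% in Mutyh-/- against 58 and 47.5% in WT, and 18.5 and 20.5% in Ogg1-/- against 32 and 39.5% in WT. Lsamp, the limbic system associated surface protein, had 21.5 and 27% in Mutyh-/- against 45.5 and 38% in WT, and 21 and 20.5% in Ogg1-/- against 39.5 and 41% in WT. Both were lower in each single knockout. Ncam2, a neural cell adhesion molecule, changed by -17.5 points in Mutyh-/- and -21.5 in Ogg1-/-, where it was -13 without the first WT library. Of 16 long cadherin, protocadherin and catenin genes, 2 were listed in Mutyh-/- (1 gain), 7 in Ogg1-/- (1 gain) and 3 in DKO (1 gain). Pcdh9 had 17.5 and 24% in Ogg1-/- against 41 and 44.5% in WT, and 35.5 and 23% in DKO against 53 and 45% in WT, and Cdh20 and Cdh18 were losses. Cdh20 changed by -21 points in Mutyh-/- and -16 in Ogg1-/-. Cdh18 changed by -20.25 in Ogg1-/- (-12.5 without the pairs of the first Ogg1-/- library) and -18 in DKO.

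Of 33 long genes of voltage-gated and calcium-release channels, Mutyh-/- listed 4, Ogg1-/- 11 and DKO 5, all losses. Cacna1c, the pore of the L-type calcium channel, had 22.5 and 19% in Ogg1-/- against 60.5 and 42.5% in WT, the largest loss of that comparison, and 25.5 and 20% in Mutyh-/- against 40.5 and 46.5% in WT. Kcnd3, an A-type potassium channel, had 21 and 22.5% in Ogg1-/- against 36.5 and 46.5% in WT, and 23.5 and 26.5% in DKO against 49.5 and 50% in WT. Cacna1d, another L-type pore, and Cacnb4, an auxiliary subunit, changed by between -22.25 and -16.5 points. Of 24 long genes of glutamate receptors and their scaffolds, 2, 4 and 2 were listed in Mutyh-/-, Ogg1-/- and DKO, again losses. Grip1, which anchors AMPA receptors, had 28 and 27.5% in Ogg1-/- against 47.5 and 58.5% in WT, and 30 and 34.5% in DKO against 48 and 61.5% in WT. The synaptic scaffold Magi1 was listed in the single knockouts, Grm8, a presynaptic glutamate receptor, in Mutyh-/- and Grid1 in DKO. Of 6 long GABA receptor genes only Gabrg3 was listed, with 19.5 and 31% in Mutyh-/- against 46.5 and 40% in WT, and 23 and 21% in DKO against 39.5 and 43.5% in WT.

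Of 27 long genes of cyclic nucleotide, phospholipase and kinase signalling, 9 were listed in Mutyh-/- (8 losses, and the gain of Plcb1), 8 in Ogg1-/- and 6 in DKO. Prkca, protein kinase C alpha, had 21 and 26% in Mutyh-/- against 55.5 and 44% in WT, and 34 and 28% in DKO against 61 and 58.5% in WT. Pde8b, a cAMP phosphodiesterase, had 23 and 30% in Mutyh-/- against 49 and 42.5% in WT, and 17.5 and 14% in Ogg1-/- against 51 and 37.5% in WT. Of 31 long genes of exchange factors and activators of small GTPases, 4, 10 and 4 were listed in Mutyh-/-, Ogg1-/- and DKO, with Trio in DKO as the gain. Dock9, an activator of Cdc42, changed by -19.75 points in Mutyh-/- and -16.5 in Ogg1-/-, Agap1 by -17.25 in Ogg1-/- and -15 in DKO, and Arhgap15 by -17.75 in Ogg1-/- and by -24.25 in Mutyh-/- (-15.5 without the second WT library).

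The remaining groups were smaller. Of 29 long cytoskeleton and motor genes, 11, 8 and 2 were listed in Mutyh-/-, Ogg1-/- and DKO, all losses, among them Kif16b, an endosomal kinesin (27.5 and 20.5% in Ogg1-/- against 36 and 44% in WT), the scaffold gene Frmd4a, and Spock1, a secreted proteoglycan kept in that list. Of 12 long growth factor genes, 2, 3 and 2 were listed. Pdgfd, a platelet-derived growth factor, changed by -23 points in Ogg1-/- (-15 without the second WT library) and -20 in DKO, Gfra1, the GDNF receptor, by -15.75 in Ogg1-/- and -20 in DKO, Igf1r by -24.5 in Mutyh-/- and Alk by -18 in Ogg1-/-. Of 9 long RNA-binding genes, 2, 3 and 0 were listed, with Msi2, a Musashi protein, at 26 and 25% in Mutyh-/- against 46.5 and 48% in WT, and Khdrbs2, Rbfox1 and Rbms1 in 1 comparison each. Of 19 long genes known from large common fragile sites, 2, 3 and 3 were listed, with Fhit and Ctnna3 as the gains. Wwox, an oxidoreductase at such a site in human, had 22 and 24.5% in Mutyh-/- against 40 and 38% in WT, and 22.5 and 23% in Ogg1-/- against 36.5 and 36.5% in WT. Immp2l, a mitochondrial peptidase, changed by -18.25 points in Ogg1-/-, and Exoc4, of the exocyst, by -22.25 in DKO.

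The largest losses were spread over unrelated genes. In Mutyh-/- Grk5, a kinase that silences G protein-coupled receptors, had 18.5 and 26% against 45.5 and 63.5% in WT, and Zmat4, a zinc finger protein, had 33 and 35% against 64.5 and 67.5% in WT. Ccbe1 and Ust, a sulfotransferase of dermatan sulfate, followed with -26.75 and -26.5 points. In Ogg1-/- Ttll11, which adds glutamate chains to tubulin, had 32 and 29% against 59 and 61% in WT, and Dpyd, of pyrimidine breakdown, had 28.5 and 21% against 50 and 58% in WT. Fbxl17, an F-box protein, changed by -29.25 points in Ogg1-/- and by -18.5 without the pairs of the second Ogg1-/- library. In DKO Trappc9, of vesicle tethering, had 28 and 25.5% against 52.5 and 58% in WT, and Fmnl2, a formin, had 24.5 and 20% against 36.5 and 61.5% in WT. The change of Fmnl2, -26.75 points, was -17.5 without the pairs of the second WT library and -15 without those of the second DKO library.

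Most of these genes had no listed CG gene body. The same share over all 1005 autosomal RefSeq genes with a body over 200 kb was not counted, so the shares of genes are no trait of this class. A CG gene body was listed for 67 of the 260 Mutyh-/- genes (25.8%), 85 of the 333 Ogg1-/- genes (25.5%) and 48 of the 139 DKO genes (34.5%), taking the longest entry of a gene. Genes were matched by name only. The CG entry counted for Bc1 in both single knockouts lay outside chromosomes 1 to 19. The CG entries of Schip1 in Mutyh-/- and Tanc1 in Ogg1-/-, both losses, spanned under 200 kb. Of these CG regions 56, 75 and 43 were gains and 11, 10 and 5 were losses. The share of gains was no higher than over all listed autosomal CG gene bodies over 200 kb. That share was 89.6% of 335 for Mutyh-/-, 92% of 324 for Ogg1-/- and 93.6% of 406 for DKO. CG windows at the start or end of these genes were losses in each case, with 7 starts and 1 end in Mutyh-/-, 2 and 2 in Ogg1-/-, and 1 and 1 in DKO. The share of losses over all listed CG windows was not counted, and the paper reports that most of its regions were lower in the knockouts. Genes lower in CHH and higher in CG numbered 52 for Mutyh-/-, 75 for Ogg1-/- (Bc1 among them in both) and 33 for DKO. Their median CG level was 85.5% in Mutyh-/- against 63.5% in WT, 83.5% in Ogg1-/- against 61.75% in WT and 89.5% in DKO against 66% in WT. Cacna1d had a CG level of 81.5 and 74.5% in Ogg1-/- against 46.5 and 49.5% in WT, beside its CHH loss of -16.5 points. Robo2 had 90.5 and 95% CG in Mutyh-/- against 75.5 and 68.5% in WT, and 81 and 90% in DKO against 63.5 and 65% in WT.

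Genes with a CHH gain had a CG gain where a CG gene body was listed. This was the case for 4 of 6 such genes in Mutyh-/- (Cdh13, Fhit, Plcb1 and Sdk1), 10 of 15 in DKO and 0 of 3 in Ogg1-/-, and none of them had a CG loss in the gene body. It is no trait of genes with a CHH gain, since 89.6% of all listed CG gene bodies over 200 kb were gains in Mutyh-/- and 93.6% in DKO. At the start of Rcan2, however, CG methylation was lower, with 33 and 36% in DKO against 51.5 and 57.5% in WT. Ano2 had 100 and 96.5% CG in DKO against 73.5 and 66% in WT, and Zbtb20 had 70.5 and 76% against 53 and 48% in WT. Zbtb20 was higher in CG in both single knockouts as well, where its CHH level was lower. In Mutyh-/- it had 75.5 and 70% CG against 54 and 50.5% in WT, and in Ogg1-/- 78.5 and 76% against 57.5 and 59% in WT.

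**Figure D5:**
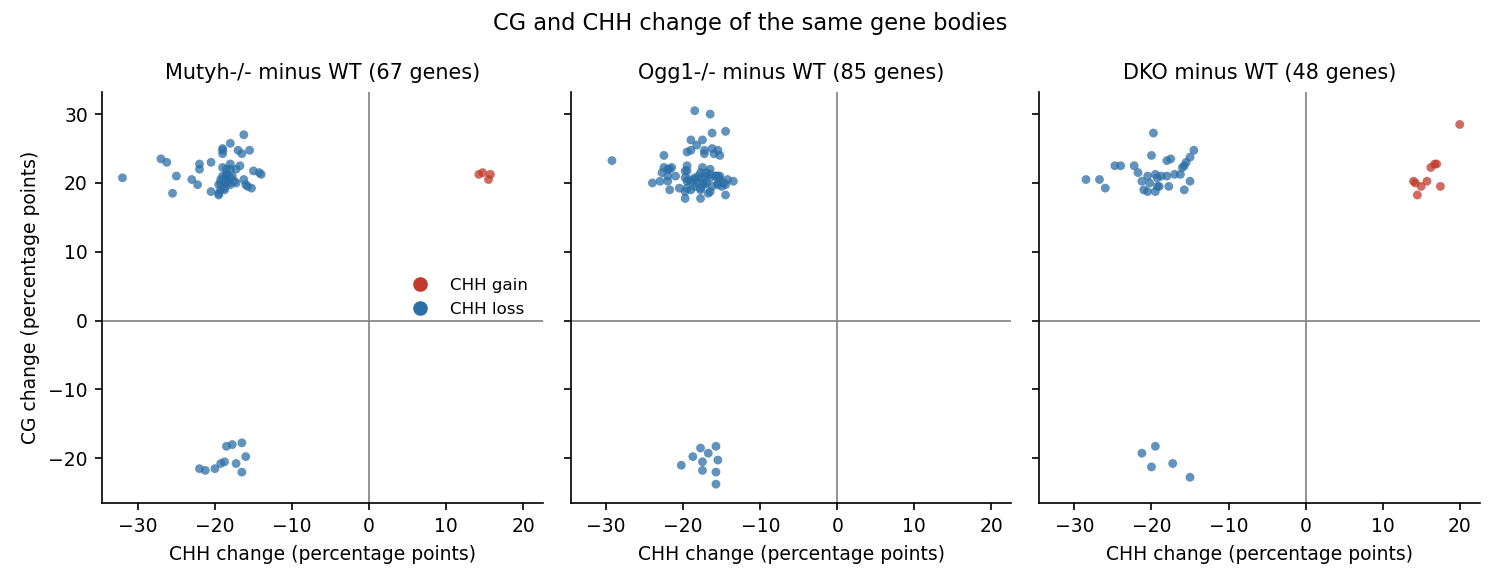
CG change against CHH change in percentage points, knockout minus WT, of genes with a CHH gene body over 200 kb and a CG gene body listed under the same name, red for CHH gains and blue for CHH losses. Most points lie at CG gains of 17.75 to 30.5 points whether CHH was higher or lower, and 11, 10 and 5 genes lie below 0 for CG.

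CHH windows at the start or end of these genes were seldom listed, and each was a loss: 4 starts and 3 ends in Mutyh-/-, 3 and 11 in Ogg1-/-, and 1 and 1 in DKO. Losses made up 99.5, 99.8 and 97.7% of all listed CHH regions in Mutyh-/-, Ogg1-/- and DKO, so the direction is no trait of these windows. Pik3c2g, a class II phosphoinositide kinase, was lower at its start in both single knockouts, with 34 and 29.5% in Mutyh-/- against 47.5 and 53% in WT, and 23 and 19% in Ogg1-/- against 35.5 and 44% in WT. CHG methylation was listed in the gene body of Cux1 in Mutyh-/- (33 and 25%, against 46.5 and 58% in WT) and of Cux1, Cmss1 and Wwox in Ogg1-/-, again as losses. In Cux1 the loss thus covered both non-CG contexts in the single knockouts, with 19 and 28.5% CHG in Ogg1-/- against 39.5 and 62.5% in WT. No CHG list of DKO was read here, so nothing can be said about CHG in DKO.

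The sequence of the regions was close to that of long genes in general. The median location had 313 CHH cytosines per kb, 16.9 CG cytosines per kb, 41.9% G and C and 3.12% exonic bases, against 312, 16, 41.5% and 3.49% for 936 protein-coding RefSeq genes with a body over 200 kb. Regions lay on each of the 19 autosomes. Among markers of hippocampal cell types, a region was found only for Gpc5 of the 6 astrocyte genes and for 0 of 7 oligodendrocyte, 0 of 5 microglia, 0 of 6 neuron and 0 of 3 vessel genes. Methylation gives no cell counts, so the makeup of the tissue could not be read from these lists. No CHH region was listed in Mutyh or Ogg1 themselves, and methylation does not show whether a gene was deleted. In CG, the Mutyh gene body had 40 and 45.5% in Mutyh-/- against 94.5 and 94.5% in WT, and 46.5 and 40% in DKO against 93.5 and 95% in WT. The window at the end of Ogg1 had 86.5 and 91% in Ogg1-/- against 66 and 64% in WT.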

How the data were processed

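Per the labels and the study's methods, the authors checked reads with FastQC, aligned them to GRCm38 with Bismark 0.22.3, removed cytosines with coverage under 4 and called regions with HMST-Seq-Analyzer, comparing each knockout with each WT library. Gene bodies needed 5 methylated sites, at most 200 bp apart, and start and end windows needed 3. The deposited values used here are scores, the authors' medians from 1 to 2, read as 1 plus the methylated fraction, a scale inferred here because the file headers do not state it: level in percent = (score - 1) x 100. The recomputed relative ratio from these values was at least 0.0939 in size, since the scores are rounded. Columns of ratios and p-values hold the authors' own comparisons and were not used. Levels were averaged over the 2 pairs of a library and the change is the knockout mean minus the WT mean. Leaving out a library removed its pairs, and the levels of the other libraries then came from the remaining pairs. The genotype named in each label set the groups. Depth per region was unknown, and no test was run on regions chosen by these libraries. Computation used Python 3.11.15, pandas 2.3.3, numpy 2.4.6, scipy 1.17.1 and matplotlib 3.10.9, and the code was tested on simulated data.

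Genes were named if they had a region in all 3 comparisons, were among the 5 largest gains or losses, the 3 longest, the 3 with the widest gap between libraries or the 2 nearest to either side of the length threshold in a comparison, or among up to 4 genes of each of 14 function lists, first by number of comparisons and then by size of change. For a gene with several entries in all 3 comparisons, the longest entry common to them was used, or else the longest. The other gains, overlapping libraries, CG, CHG, start and end regions were named after their values were seen. The regions and lists were chosen with earlier results of these data known. RefSeq GRCm38.p6, the build of the files, gave names (537 locations by symbol and 16 by synonym), sequence and gene lengths. Alternatives changed the relative ratio, the counting unit, the length threshold and the libraries. They included a fit restricted to same-numbered libraries. Some genes that this rule or these patterns reach are not reported here.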

Additional observations from a re-analysis of the deposited data

Results flagged for a closer look

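Each location below was higher in all knockout libraries of 1 comparison and lower in all knockout libraries of another, and the difference between the 2 changes was not tested. The DKO change minus the Mutyh-/- change was 30.5 percentage points at both entries of Agbl4, 38.5 at Ano2, 35.75 at Arl15, 39 at Hmcn1, 38.25 at Rcan2 and 39.25 at Trio. The DKO change minus the Ogg1-/- change was 28 points at Nckap5, 36.75 at Ntm and 38.75 at Zbtb20. The Ogg1-/- change minus the DKO change was 30.25 points at Tmem108, and the Ogg1-/- change minus the Mutyh-/- change there was 34.75. At these locations the WT libraries themselves differed between the comparisons by 5.5 to 41 points, and the part of that in the differences was not tested.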

How the results depend on the processing

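With a relative ratio of at least 0.15 in all 4 pairs, Mutyh-/- kept 0 gains and 3 losses, Ogg1-/- 0 and 3, and DKO 0 and 1, with median losses of -32 points in Mutyh-/- and -24.75 in Ogg1-/- and no median for gains. A threshold of 300000 bp left 138, 195 and 63 losses in Mutyh-/-, Ogg1-/- and DKO. Counting each location once, each gene and direction once, a threshold of 150000 bp and RefSeq gene length moved no count by over 1.5 times. Regions were listed for 1 direction in all 4 pairs, so leaving out 1 library could change neither a sign nor the counts of 6 and 288 in Mutyh-/-, 3 and 380 in Ogg1-/- and 19 and 148 in DKO. The median gain ranged over 14 to 15.25, 15 to 16 and 15 to 16 points, and the median loss over -18 to -17.5, -17.5 to -17 and -18.5 to -17.5. With the replicate block, which kept only same-numbered library pairs, the median loss was -17.5 in Mutyh-/-, -17.5 in Ogg1-/- and -18 in DKO, but 24 of 238 regions of named genes moved by over 1 SD. The numbers name libraries and are not said to pair them. Of 952 values with 1 library left out over 238 regions of named genes, 94 moved by over 1 SD and 14, in 12 regions, by over 1.5 times. The planned limit on the deposited p-values was not run because those columns hold the authors' comparisons. No alternative gives the reads behind a region, the levels are medians over the positions kept by the caller, and 2 libraries per genotype limit every value.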
